A study of Homo sapiens with 15 samples.

Results

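Insulin lowered receptor and adaptor genes of its own pathway, some matrix and adhesion genes and targets of YAP and TEAD in 12Z cells that carried PIK3CA H1047R while RSAD2 was knocked down, and it raised some genes of amino acid handling and targets of p53. The comparison rested on 6 of the 15 libraries of the series, 3 with insulin and 3 with vehicle, chosen by their labels. 12Z is an immortalised epithelial line from an endometriotic lesion. All 6 libraries shared a pool of siRNAs against RSAD2 (siRSAD2), followed after 24 h by a transiently transfected pBabe plasmid with PIK3CA H1047R, the activating substitution in the catalytic subunit p110 alpha. Another 24 h later serum was withdrawn for 4 h, and cells then received 100 nM insulin or its vehicle for 24 h. The other groups, again of 3 libraries each, were siRSAD2 cells with the empty plasmid, with insulin or vehicle, and vehicle cells with non-targeting siRNA and the empty plasmid. Each library is an independent experiment according to the methods, so p values describe the spread between such experiments in 1 cell line. Because the mutant came from a transient plasmid, the share of cells that carried it was not measured here, and in a bulk sample fewer expressing cells and less RNA per cell cannot be told apart.

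Insulin binds the insulin receptor and the related IGF1 receptor, and these phosphorylate the adaptors IRS1 and IRS2. The adaptors recruit phosphatidylinositol 3-kinase, whose lipid product activates the kinase AKT. AKT in turn keeps FOXO transcription factors out of the nucleus and activates mTORC1, the kinase complex that drives synthesis of proteins, lipids and nucleotides. FOXO factors promote transcription of INSR and IRS2, and this arrangement is known as a feedback loop of the pathway. RSAD2 encodes viperin, an antiviral radical SAM enzyme that interferon induces.

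Both labelled manipulations were visible in the counts. RSAD2 (ENSG00000134321.12), which lies on the plus strand of chromosome 2 from 6865557 to 6898239 in hg38, was at 0.624, 1.41 and 0.659 CPM in the vehicle libraries and 0.823, 0.787 and 0.9 CPM with insulin, where CPM is a counts-per-million value with library sizes scaled by TMM. The level with non-targeting siRNA was 3.29 ± 0.36 CPM (SD, n = 3). That group carried the empty plasmid, so siRNA and plasmid both differ from the H1047R libraries. In siRSAD2 cells with the empty plasmid the means were 0.33 ± 0.32 CPM with vehicle and 0.33 ± 0.18 CPM with insulin (SD, n = 3). The H1047R means were higher, at 0.899 and 0.837 CPM, a difference that was not tested here. Vehicle and insulin libraries of H1047R cells overlapped, and the log2 fold change of -0.16 ± 0.41 (SE) had an adjusted p of 0.969 (edgeR quasi-likelihood F test, Benjamini-Hochberg adjustment, as for every adjusted p here). PIK3CA (ENSG00000121879.5, chromosome 3, 179148114 to 179240093, plus strand) had 212, 199 and 223 CPM with vehicle and 164, 160 and 164 CPM with insulin. Reads of the endogenous gene and of the plasmid are counted together. All insulin libraries lay below all vehicle libraries, a fall of -0.38 ± 0.05 on the log2 scale (adjusted p = 9.53e-06). With the empty plasmid PIK3CA had means of 89 and 79.2 CPM with vehicle and insulin, a change of -0.17 ± 0.05 (adjusted p = 0.0566), and the difference between the changes had an unadjusted p of 0.00863 and an adjusted p of 0.687.

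Keratins of simple epithelia marked the cells. KRT8 had 839 to 897 CPM with vehicle and 892 to 962 CPM with insulin, whereas the epithelial adhesion genes EPCAM and CDH1 were near 0, at most 0.435 and 0.929 CPM in any of the 6 libraries. The mesenchymal filament gene VIM had 1961 to 2092 CPM with vehicle and fell with insulin to 1647 to 1721 CPM (-0.26 ± 0.04, adjusted p = 8.51e-05). The endothelial marker PECAM1 stayed at or below 0.58 CPM and the leukocyte marker PTPRC at or below 1.12 CPM. Summed over the measured members, 19 epithelial markers gave 1980 to 2100 CPM with vehicle and 2050 to 2190 CPM with insulin, and 16 stromal markers gave 7810 to 7940 and 7370 to 7900 CPM. The sum of 12 endothelial markers was 34.8 to 37.1 CPM against 33.9 to 37.9 CPM. That of 9 immune markers was 210 to 220 CPM against 181 to 188 CPM and consisted mostly of NCAM1, also a neural adhesion gene, with means of 209 and 178 CPM. Of these lists, the epithelial and endothelial ones had no member past the threshold with edgeR. At an unadjusted p below 0.05 they had 3 and 1 members, beside 2514 of all 23184 genes tested, and with DESeq2 1 and 0. In the other lists, 4 stromal markers (MME, NT5E, VIM and PDGFRA) and NCAM1 fell. The part of these differences in the results that follow was not tested.

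Counts over all genes totalled 23598879, 39671047 and 19503985 in the vehicle libraries and 20333159, 17158710 and 33644266 with insulin, so depth did not separate the groups. Of 23184 genes tested, 573 (2.47%) passed the adjusted threshold of 0.05, with 112 higher (0.483%) and 461 lower (1.99%) after insulin. Of the 573, 565 were protein coding. For 571 of the 573 the CPM ranges of the 2 groups did not overlap, as they did not for 19.4% of all genes tested. The changes were small, with a median absolute log2 fold change of 0.32 among the genes called, and 14 genes rose and 55 fell by at least 1.5-fold. At least 2-fold changes were reached by 2 genes upward, INHBE and COL15A1, and by 8 downward. Of those 8, RGS7 and NAALADL2 had means below 1 CPM in both groups, and the others were HHIP, CEMIP, MMP1, ANKRD1, SUCNR1 and the long noncoding RNA ENSG00000269927.1.

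**Figure D1:**
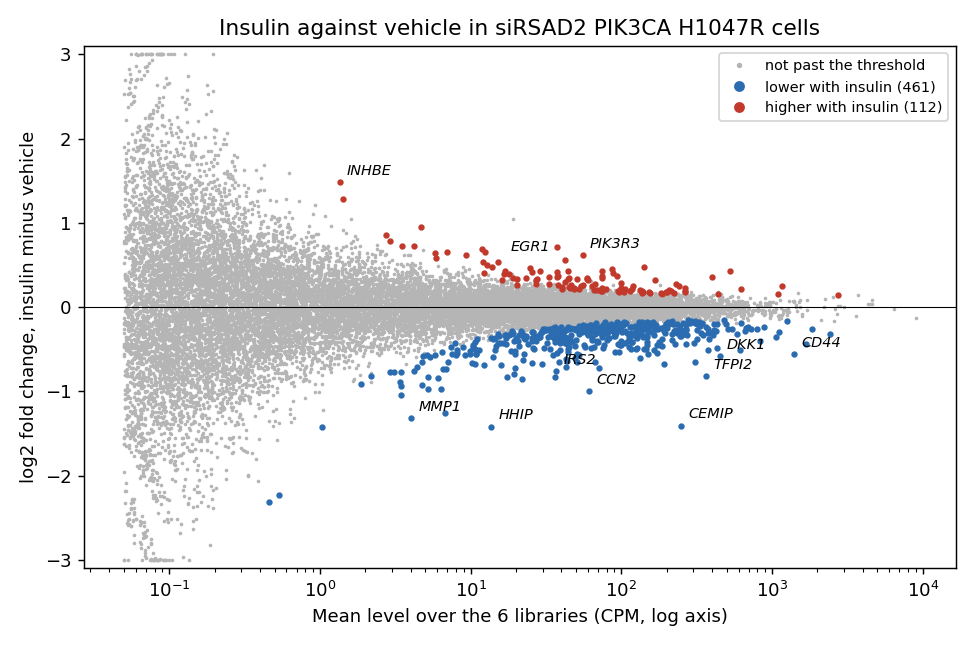
Log2 fold change with insulin (vertical axis, insulin minus vehicle) against the mean level over the 6 libraries (horizontal log axis, CPM) for the 21866 genes with a mean above 0.05 CPM, with values beyond 3 drawn at 3. Each point is a gene, with 461 genes lower (blue) and 112 higher (red) at an adjusted p below 0.05 and all others in grey.

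Genes of the receptor and adaptor step fell. In the list of insulin receptor, IRS adaptor and phosphatidylinositol 3-kinase genes, 6 of 40 measured members fell, 1 rose and 33 did not pass, with a median log2 fold change of -0.023 against -0.0013 over all genes tested. PIK3CA, the kinase gene whose fall is given above, has reads of the plasmid in its count. Over all genes tested 1.99% fell and 0.483% rose, shares that stand beside every list count below. IRS2 (ENSG00000185950.9, chromosome 13, 109752695 to 109786583, minus strand), the adaptor that links the receptor to the kinase, had 45, 45.8 and 48.4 CPM with vehicle and 29.4, 26.6 and 26.3 CPM with insulin. No insulin library reached the lowest vehicle library, and the fall was 1.69-fold (-0.76 ± 0.07, adjusted p = 8.83e-09). INSR (ENSG00000171105.14, chromosome 19, 7112255 to 7294414, minus strand), the insulin receptor itself, had 38.2, 34.9 and 34.5 CPM with vehicle and 25, 25.6 and 26.3 CPM with insulin (-0.48 ± 0.07, adjusted p = 2.71e-05). IGF1R, the receptor of IGF1, fell from 86.8, 89.8 and 88 CPM to 68.6, 61.4 and 63.4 CPM (-0.45 ± 0.05, adjusted p = 7.67e-07). Receptors and adaptor therefore fell without overlap of the groups, each by under 2-fold.

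Downstream, the members moved unequally. TBC1D4, a substrate of AKT that holds back the traffic of glucose transporters, fell from 48.2, 48.6 and 49.9 CPM to 35.4, 35 and 38.5 CPM (-0.43 ± 0.06, adjusted p = 1.83e-05). PIK3R3 (ENSG00000117461.15, chromosome 1, 46040140 to 46133036, minus strand), a regulatory subunit that binds the catalytic subunit, was the member that rose. It had 43.3, 44.1 and 43.3 CPM with vehicle and 67.2, 69 and 65.2 CPM with insulin, a 1.54-fold rise (0.62 ± 0.06, adjusted p = 2.6e-08). The main regulatory subunit PIK3R1 differed by 0.08 ± 0.08 (adjusted p = 0.839), AKT1 by 0.0034 ± 0.05 (0.996) and AKT2 by 0.05 ± 0.05 (0.855). IRS1 lay lower in every insulin library, at 75.5 to 80.6 CPM against 87.2 to 89.3 CPM, and did not pass (-0.16 ± 0.06, adjusted p = 0.217). PIK3IP1, a membrane inhibitor of the kinase, fell by 0.42 ± 0.11 (adjusted p = 0.023), a call that was lost with 5 of the 6 libraries left out singly and kept without insulin library 3 (adjusted p = 0.0354, otherwise 0.0573 to 0.126).

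**Figure D2:**
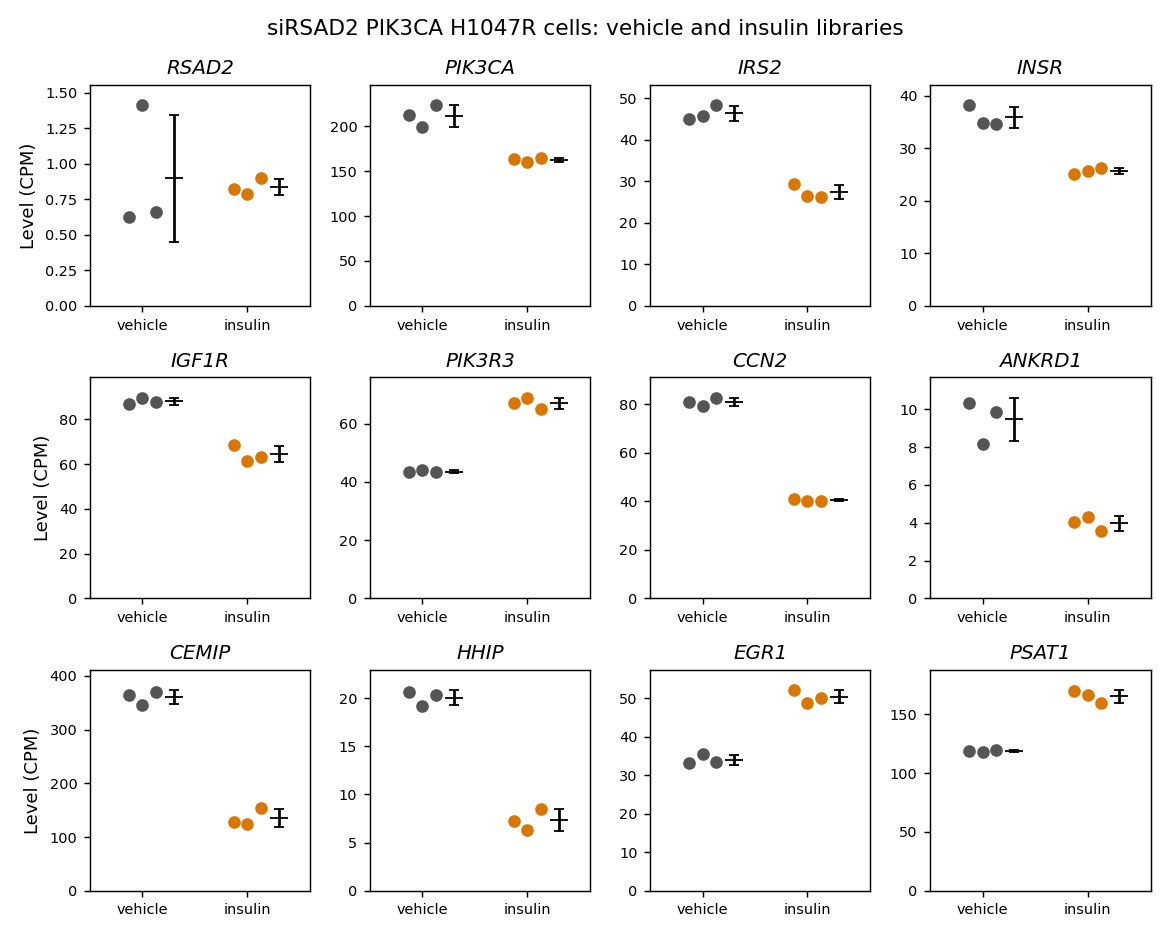
Level in CPM (vertical axes, from 0) of 12 genes in the 3 vehicle (grey) and 3 insulin (orange) libraries of siRSAD2 PIK3CA H1047R cells. Points are libraries and black marks show the mean with SD (n = 3). RSAD2 overlaps between the groups and the other 11 genes do not.

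Genes that FOXO factors activate and insulin represses in other tissues fell as well. Of 40 measured members 13 fell, 1 rose and 26 did not pass, with a median of -0.19, and for 23 members the insulin range lay wholly below the vehicle range, as it did for 10.5% of all genes. IRS2 and INSR belong to this list too. CCNG2, a cyclin that slows division, had 106, 111 and 113 CPM with vehicle and 77.2, 85.4 and 81.7 CPM with insulin (-0.43 ± 0.06, adjusted p = 7.81e-06). MXI1, an antagonist of MYC, fell from 43.4, 47 and 47.2 CPM to 32.1, 34.4 and 30.9 CPM (-0.50 ± 0.07, adjusted p = 1.43e-05). The groups stood apart for both genes. KLHL24, an adaptor of an E3 ubiquitin ligase, changed by -0.45 ± 0.06 (adjusted p = 1.58e-05), CREBRF, a regulator of CREB3 factors, by -0.41 ± 0.07 (0.000498) and the coregulator CITED2 by -0.26 ± 0.05 (0.000642). RICTOR, the subunit that defines mTORC2, fell from 125 to 133 CPM to 98.9 to 108 CPM (-0.30 ± 0.06, adjusted p = 0.00313).

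Some classical members did not follow. SESN1, a stress-induced inhibitor of mTORC1 that is also a p53 target, was the member that rose (0.28 ± 0.07, adjusted p = 0.0197), a call lost without vehicle library 1 or 3 or any 1 insulin library (adjusted p of 0.0572 to 0.137). CDKN1B, an inhibitor of cyclin-dependent kinases, differed by -0.10 ± 0.06 (adjusted p = 0.618) and TXNIP, which restrains glucose uptake, by -0.05 ± 0.05 (0.871). FOXO1 itself had 5.48 to 6.53 CPM with vehicle and 3.32 to 5.52 CPM with insulin (adjusted p = 0.242), and FOXO3 differed by -0.03 ± 0.06 (0.961). The calls of ERBB3, FBXO32 and HBP1 depended on single libraries. HBP1, a repressor of cell cycle genes, was lost without insulin library 3 (adjusted p = 0.0665). The ubiquitin ligase gene FBXO32 was lost without vehicle library 2, insulin library 1 or insulin library 3 (0.305, 0.235 and 0.101), and the receptor gene ERBB3 without vehicle library 1 or 2 or insulin library 2 or 3 (0.0617 to 0.266). The core FOXO site GTAAACA, searched on both strands of the RefSeq window from 250 bases before to 50 bases after the start, was held by 3.41% of 27305 promoters, by 2.35% of those of genes tested, by 22 of 357 (6.16%) of genes that fell and by 1 of 90 (1.11%) of genes that rose. Among the 11 FOXO list members that fell and had a window, HBP1 alone held it.

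YAP and TEAD targets were among the largest falls. YAP and its relative TAZ (gene WWTR1) are coactivators that enter the nucleus of spread or stretched cells and bind TEAD factors at their targets. Of 28 measured targets 10 fell, none rose and 18 did not pass, with a median of -0.17, and 20 had an insulin range wholly below the vehicle range (10.5% of all genes). CCN2 (ENSG00000118523.6, chromosome 6, 131948176 to 131951372, minus strand) encodes a secreted matricellular protein and ANKRD1 (ENSG00000148677.6, chromosome 10, 90912096 to 90921087, minus strand) an ankyrin repeat protein, both widely used as readouts of YAP. Their promoters are shown because they repeat the TEAD core motif GGAATG, in capitals. Each is the 250 bases before the RefSeq start in GRCh38.p14, 5′ to 3′ along the gene, at chr6:131951373-131951622 and chr10:90921088-90921337, minus strand.
CCN2: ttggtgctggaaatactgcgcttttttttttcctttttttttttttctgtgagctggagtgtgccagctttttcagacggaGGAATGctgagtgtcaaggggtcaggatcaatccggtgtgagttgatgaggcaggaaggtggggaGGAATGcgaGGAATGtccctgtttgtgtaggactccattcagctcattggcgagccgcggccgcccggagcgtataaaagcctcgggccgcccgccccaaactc
ANKRD1: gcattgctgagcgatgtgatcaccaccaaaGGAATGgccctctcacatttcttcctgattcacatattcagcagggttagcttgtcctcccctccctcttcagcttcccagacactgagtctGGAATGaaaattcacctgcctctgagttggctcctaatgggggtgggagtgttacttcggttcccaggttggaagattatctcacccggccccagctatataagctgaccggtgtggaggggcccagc
CCN2 holds the motif 3 times, starting 169, 104 and 95 bases before the start, and ANKRD1 2 times, starting 220 and 128 bases before it. On either strand of the window that runs to 50 bases after the start, GGAATG was found in 14% of 27305 promoters and in 3 of the 8 fallen list members with a window (CCN2, ANKRD1 and THBS1). It was found in 45 of 357 (12.6%) of genes that fell and in 9 of 90 (10%) of genes that rose, against 11.4% of the promoters of genes tested.

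CCN2 had 80.7, 79.5 and 82.8 CPM with vehicle and 41, 40.3 and 40.3 CPM with insulin. Every insulin library lay far below the lowest vehicle library, a 2.00-fold fall (-0.998 ± 0.06, adjusted p = 2.03e-12). ANKRD1 had 10.4, 8.16 and 9.89 CPM with vehicle and 4.02, 4.33 and 3.57 CPM with insulin, a 2.39-fold fall (-1.26 ± 0.15, adjusted p = 1.34e-06). Its counts ranged from 77 to 323 per library over the 6 libraries. CCN1, another secreted matricellular protein, had 197, 193 and 186 CPM with vehicle and 135, 133 and 138 CPM with insulin (-0.50 ± 0.05, adjusted p = 1.82e-08). Among the other targets, NT5E, the ectonucleotidase CD73, changed by -0.39 ± 0.05 (adjusted p = 2.05e-06), the receptor kinase AXL by -0.33 ± 0.05 (2.04e-05), CRIM1 by -0.23 ± 0.04 (0.000944) and the matrix glycoprotein THBS1 by -0.29 ± 0.06 (0.00274). AMOTL2, an angiomotin that binds YAP, and MYOF, a membrane repair protein, were called with all libraries (adjusted p of 0.0344 and 0.0469) and lost with any 1 of the 6 left out, while AMOTL1 was lost without insulin library 2 (0.0565). The coactivator gene YAP1 differed by -0.06 ± 0.05 (adjusted p = 0.808) and TEAD1 by -0.16 ± 0.05 (0.0717). WWTR1 fell by 0.19 ± 0.05 (adjusted p = 0.022), which did not hold without vehicle library 1 or 3 or insulin library 1 or 2 (0.103 to 0.186).

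Of the matrix and adhesion genes that passed, most fell, and most members of both lists did not pass. In the matrix list 22 of 77 measured members fell, 3 rose and 52 did not pass (median -0.10, 32.5% called against 2.47% of all genes). Of 51 integrin, cadherin and adhesion genes 10 fell and none rose (median -0.13, 19.6% called, 29 at an unadjusted p below 0.05). Of all 23184 genes tested, 2514 had an unadjusted p below 0.05. The study drew a matrix theme from samples of this series, so the matrix count is not independent evidence. CEMIP (ENSG00000103888.17, chromosome 15, 80779343 to 80951776, plus strand), which binds hyaluronan and takes part in its breakdown, had 365, 346 and 371 CPM with vehicle and 129, 124 and 154 CPM with insulin. The groups were wide apart and the fall was 2.65-fold (-1.41 ± 0.06, adjusted p = 2.84e-16). CD44, the surface receptor of hyaluronan, had 1655, 1693 and 1638 CPM with vehicle and 1123, 1102 and 1167 CPM with insulin (-0.56 ± 0.04, adjusted p = 1.62e-11). PTX3, a pattern recognition protein that links hyaluronan chains, had 91.2, 80.3 and 94.7 CPM against 52.1, 52.1 and 56.6 CPM (-0.72 ± 0.07, adjusted p = 3.36e-08). These were the 3 of 15 measured hyaluronan genes that passed, all downward, and each kept its call with any 1 of the 6 libraries left out. The synthase HAS2 differed by -0.07 ± 0.11 (adjusted p = 0.947) and the hyaluronidase HYAL2 by 0.18 ± 0.11 (0.631), and HAS3 had 2.88 to 3.91 CPM with vehicle and 4.27 to 4.89 CPM with insulin (adjusted p = 0.28).

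The 22 matrix genes that fell included protease inhibitors, collagens and proteases. TFPI2, a secreted inhibitor of serine proteases, had 464, 444 and 499 CPM with vehicle and 252, 262 and 283 CPM with insulin (-0.82 ± 0.05, adjusted p = 2.19e-11), and SERPINE2, another such inhibitor, had 1910 to 1957 CPM against 1371 to 1486 CPM (-0.44 ± 0.04, adjusted p = 3.85e-09). The transmembrane collagen COL13A1 fell from 31.2, 24.8 and 29.1 CPM to 15.7, 15.9 and 15.4 CPM (-0.85 ± 0.09, adjusted p = 2.74e-07). MMP1, the interstitial collagenase, had 4.95, 6.09 and 6.39 CPM with vehicle and 2.52, 1.8 and 2.55 CPM with insulin, a 2.49-fold fall at 32 to 241 counts per library (-1.32 ± 0.21, adjusted p = 0.000103). COL8A1 changed by -0.64 ± 0.07 (adjusted p = 3.08e-07), the collagen crosslinking enzyme LOX by -0.38 ± 0.04 (5.01e-07) and fibronectin (FN1) by -0.32 ± 0.04 (1.34e-06). Against this direction, the matricellular genes TNC and POSTN in the list rose by 0.34 ± 0.05 (adjusted p = 0.000125) and 0.28 ± 0.06 (0.00241). SPARC, the last of the 3 list members that rose, changed by 0.15 ± 0.035 (adjusted p = 0.0156) and was not called without vehicle library 1 or 2 or insulin library 1 or 3 (0.0567 to 0.121). Outside the list, and also upward, the collagen gene COL15A1 changed by 1.29 ± 0.27 (adjusted p = 0.00486, 0.0531 without vehicle library 1) and TIMP4, an inhibitor of metalloproteases, by 0.64 ± 0.15 (adjusted p = 0.0172), the latter lost without vehicle library 1 or 2 or insulin library 1 or 3 (0.0604 to 0.222).

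Among adhesion genes, ITGA2, the collagen-binding integrin chain alpha 2, fell from 171, 170 and 175 CPM to 118, 117 and 129 CPM (-0.50 ± 0.05, adjusted p = 1.27e-07). CLDN1, a tight junction protein, fell from 58.9, 65.5 and 63.9 CPM to 41.1, 43.4 and 42.2 CPM (-0.57 ± 0.06, adjusted p = 5.33e-07). VCL, which couples integrins and cadherins to actin, had 584 to 591 CPM with vehicle and 484 to 493 CPM with insulin (-0.26 ± 0.04, adjusted p = 0.000103). All 3 kept their calls with each library left out. ITGB5, ITGB8, ITGB4, CDH13 and NCAM1 also fell, by 0.40 ± 0.06, 0.40 ± 0.06, 0.37 ± 0.07, 0.26 ± 0.05 and 0.24 ± 0.05. The common beta chain ITGB1 differed by -0.13 ± 0.06 (adjusted p = 0.328) and N-cadherin (CDH2) by -0.09 ± 0.05 (0.503). The list of cytoskeleton and SRF targets had VCL as its 1 call among 24.

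Several feedback genes of the MAPK cascade were lower 24 h after insulin, and EGR1 was higher. In the immediate early and MAPK feedback list 14 of 42 members fell, 1 rose and 27 did not pass (median -0.11, 35.7% called against 2.47% of all genes). DUSP6, a phosphatase that inactivates ERK, had 114, 111 and 117 CPM with vehicle and 82.3, 83 and 84.7 CPM with insulin (-0.45 ± 0.05, adjusted p = 5.01e-07). PHLDA1, an early response gene, had 262, 254 and 266 CPM against 194, 184 and 199 CPM (-0.44 ± 0.05, adjusted p = 5.01e-07), and ETV4, an ETS factor that follows ERK activity, had 40 to 43.5 CPM against 26 to 30.9 CPM (-0.56 ± 0.07, adjusted p = 1.34e-06). The insulin libraries were lowest for all 3 genes. The Sprouty genes SPRY1 and SPRY4, inhibitors of receptor signalling to RAS, changed by -0.56 ± 0.08 (adjusted p = 4.97e-05) and -0.50 ± 0.06 (1.76e-06), DUSP4 by -0.37 ± 0.05 (1.42e-06), the AP-1 subunit FOSL1 by -0.41 ± 0.06 (5.95e-05) and KLF6 by -0.34 ± 0.05 (6.9e-05). The nuclear receptor NR4A2 fell from 4.33 to 4.77 CPM to 1.86 to 2.95 CPM (-0.93 ± 0.19, adjusted p = 0.00281). FOS had 5 to 6.03 CPM with vehicle and 4.7 to 5.52 CPM with insulin (adjusted p = 0.889), and DUSP1 differed by -0.08 ± 0.08 (0.844). MYC fell by 0.31 ± 0.07 (adjusted p = 0.00671) and lost its call without vehicle library 1 or insulin library 3 (0.11 and 0.0759). KLF2, ETV1, ETV5 and SPRY2 each lost theirs without 3 or more of the libraries in turn.

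EGR1 (ENSG00000120738.8, chromosome 5, 138465479 to 138469303, plus strand), a zinc finger factor usually induced within minutes of a stimulus, had 33.3, 35.5 and 33.3 CPM with vehicle and 52.1, 48.8 and 50.2 CPM with insulin. Every insulin library was above every vehicle library, a 1.48-fold rise (0.56 ± 0.07, adjusted p = 2.73e-06) that held with each library left out. Its promoter is shown because it carries CArG boxes, the sites of serum response factor, in capitals. It is the 250 bases before the RefSeq start in GRCh38.p14, at chr5:138465229-138465478, plus strand.
EGR1: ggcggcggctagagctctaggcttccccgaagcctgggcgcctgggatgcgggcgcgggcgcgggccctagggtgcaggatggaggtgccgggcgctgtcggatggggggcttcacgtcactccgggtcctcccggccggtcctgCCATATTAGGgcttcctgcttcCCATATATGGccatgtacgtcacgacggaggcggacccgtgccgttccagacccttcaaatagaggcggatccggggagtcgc
The boxes begin 105 and 83 bases before the start. A CArG box on either strand of the window to 50 bases after the start was found in 1.29% of 27305 promoters, in 1.05% of those of genes tested, in 4 of 357 (1.12%) of genes that fell and in 2 of 90 (2.22%) of genes that rose, EGR1 and the glycyl-tRNA synthetase gene GARS1. The AP-1 motif TGANTCA was found in 7.76% of all promoters, in 5.3% of those of genes tested, in 31 of 357 (8.68%) of genes that fell and in 10 of 90 (11.1%) of genes that rose. Motifs were searched separately, so overlaps between them were not counted, and a match describes the letters of the window and not binding.

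In the hedgehog list 3 of 17 members fell and none rose (17.6% called against 2.47% of all genes). HHIP (ENSG00000164161.10, chromosome 4, 144646156 to 144745271, plus strand), which binds hedgehog ligands and limits their signal, had 20.6, 19.1 and 20.3 CPM with vehicle and 7.22, 6.3 and 8.5 CPM with insulin, a 2.67-fold fall (-1.42 ± 0.14, adjusted p = 7.74e-08) at 112 to 758 counts per library. GAS1, a coreceptor of hedgehog, fell from 49.2, 51.7 and 53.9 CPM to 35.2, 32.4 and 33.3 CPM (-0.62 ± 0.07, adjusted p = 4.68e-07). The ciliary gene EVC was the last of these (-0.23 ± 0.05, adjusted p = 0.0116), and it was lost with 5 of the 6 libraries left out singly (0.0576 to 0.0849) and kept without vehicle library 2. The hedgehog receptor PTCH1 (-0.13 ± 0.07, adjusted p = 0.532) and the target GLI1 (0.33 ± 0.15, 0.397) did not pass.

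In the Wnt list 4 of 37 members fell and none rose (10.8% called against 2.47% of all genes). DKK1, a secreted antagonist of Wnt coreceptors, had 550, 516 and 552 CPM with vehicle and 340, 359 and 382 CPM with insulin (-0.58 ± 0.05, adjusted p = 6.55e-09). SFRP1, which sequesters Wnt ligands, had 1176 to 1202 CPM against 899 to 950 CPM (-0.36 ± 0.04, adjusted p = 1.63e-07). The receptors FZD1 and FZD8 fell by 0.40 ± 0.07 (adjusted p = 0.000497) and 0.69 ± 0.12 (0.000499), and all 4 calls held with each library left out. Among genes of TGF-beta, activin and BMP signalling 6 of 43 fell and 2 rose, INHBE and GDF15, with 1 rise without any 1 vehicle library or insulin library 1 or 2. The share called in that list was 18.6%. FST, which neutralises activin, fell from 25.1, 24 and 24.7 CPM to 15.5, 13.6 and 13.7 CPM (-0.79 ± 0.08, adjusted p = 9.34e-08). NOG, the BMP antagonist noggin, fell from 7.62, 7.93 and 9.23 CPM to 4.89, 4.89 and 5.02 CPM (-0.73 ± 0.13, adjusted p = 0.000499), and the receptor TGFBR2 changed by -0.33 ± 0.05 (1.46e-05).

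Of 32 receptor tyrosine kinases 6 fell and none rose, AXL from 443 to 464 CPM to 340 to 371 CPM (adjusted p = 2.04e-05) and EGFR from 450 to 482 CPM to 358 to 401 CPM (-0.29 ± 0.05, adjusted p = 0.000279), beside IGF1R, INSR, ERBB3 and PDGFRA. The share called was 18.8%, against 2.47% of all genes, and the count was 4 without vehicle library 1 or 2 or insulin library 2 or 3. In the list of angiogenic and IGF axis secreted factors 6 of 33 fell and 1 rose. FGF7, a growth factor for epithelia, fell from 47.8, 44.9 and 48.6 CPM to 29.9, 31.5 and 28.8 CPM (-0.65 ± 0.11, adjusted p = 0.000289) and the vasoconstrictor precursor EDN1 from 7.49, 5.08 and 7.55 CPM to 4.02, 3.54 and 3.54 CPM (-0.83 ± 0.17, adjusted p = 0.00217). Both groups of libraries were apart, but the count of falls in that list was 3 without vehicle library 3. VEGFA differed by -0.04 ± 0.06 (adjusted p = 0.937).

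Inflammatory genes moved in both directions, 4 of 43 down and 3 up (median -0.20). TNFRSF11B, the decoy receptor osteoprotegerin, had 240, 229 and 236 CPM with vehicle and 142, 144 and 155 CPM with insulin (-0.67 ± 0.05, adjusted p = 5.62e-11). The neutrophil chemokine CXCL8 had 6.45, 5.91 and 6.49 CPM against 2.76, 3.09 and 3.89 CPM (-0.92 ± 0.15, adjusted p = 0.000172). CXCL12, a chemokine of stromal cells, rose from 31.3, 35.1 and 32.7 CPM to 45, 43.9 and 40 CPM (0.37 ± 0.07, adjusted p = 0.00113). The other risers, IL1R1 and TNFAIP2, were called with all libraries (adjusted p of 0.0369 and 0.0315) and lost with any 1 of the 6 left out. SUCNR1, the succinate receptor, was at 4.2, 4.98 and 4.61 CPM with vehicle and 2.76, 2.36 and 1.77 CPM with insulin (-1.04 ± 0.19, adjusted p = 0.000955).

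Of 49 genes of glycolysis and low oxygen 12 fell, 1 rose and 36 did not pass (median -0.10). The share called was 26.5%, against 2.47% of all genes. For 24 members the insulin range lay wholly below the vehicle range, as it did for 10.5% of all genes. NDRG1, a gene induced by low oxygen, had 301, 325 and 302 CPM with vehicle and 221, 231 and 233 CPM with insulin (-0.44 ± 0.07, adjusted p = 4.05e-05). The stanniocalcins, secreted glycoproteins, fell as well, STC2 from 167 to 172 CPM to 121 to 126 CPM (-0.45 ± 0.06, adjusted p = 2.15e-05) and STC1 by 0.48 ± 0.08 (0.000242). The neuronal-type glucose transporter SLC2A3 changed by -0.32 ± 0.05 (adjusted p = 0.00025), the mitophagy receptor BNIP3L by -0.33 ± 0.06 (0.000478) and hexokinase HK2 by -0.31 ± 0.06 (0.00237). DDIT4, an inhibitor of mTORC1, was the riser, from 53, 56.1 and 51.5 CPM to 66.5, 66.3 and 67.8 CPM (0.32 ± 0.06, adjusted p = 0.00124). The kinase gene PDK1 (-0.20 ± 0.08, adjusted p = 0.269) and LDHA (-0.10 ± 0.05, 0.505) did not pass.

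Of 48 measured ATF4 and amino acid response genes 10 rose, 1 fell (STC2) and 37 did not pass, with a median of 0.13. PSAT1 (ENSG00000135069.14, chromosome 9, 78297125 to 78330093, plus strand), an aminotransferase of serine synthesis, had 119, 118 and 120 CPM with vehicle and 170, 167 and 159 CPM with insulin, a 1.39-fold rise (0.47 ± 0.05, adjusted p = 1.15e-07). SLC7A5, the light chain of a transporter for large neutral amino acids, rose from 59.1, 66.1 and 65.8 CPM to 89.5, 80.9 and 86.8 CPM (0.43 ± 0.06, adjusted p = 4.34e-05). The groups were apart in both. The tRNA synthetase genes WARS1 and YARS1 rose by 0.33 ± 0.05 (adjusted p = 6.32e-05) and 0.25 ± 0.05 (0.0015), and the stress cytokine GDF15 from 18.8 to 22.7 CPM to 27.3 to 30.6 CPM (0.46 ± 0.09, adjusted p = 0.00153). SARS1 was lost without insulin library 1 (adjusted p = 0.0541), GARS1 without vehicle library 1 or insulin library 3 (0.0705 and 0.1), IARS1 without any of 5 of the 6 libraries and SLC3A2, the heavy chain of the transporter, without any of the 6. PHGDH, which opens serine synthesis, had 243 to 258 CPM with vehicle and 270 to 300 CPM with insulin and did not pass (0.18 ± 0.05, adjusted p = 0.0665). ASNS, asparagine synthetase, was counted at only 0.956 to 1.47 CPM. The number of rises in the list was 21 without empty-vector insulin library 2, a library outside this comparison that entered the common estimate of the spread, and 19 with DESeq2.

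Targets of p53 rose in 10 of 37 cases and fell in 1, with a median of 0.16 and an insulin range wholly above the vehicle range for 20 (8.83% of all genes). CDKN1A, the inhibitor p21 of cyclin-dependent kinases, had 434, 480 and 424 CPM with vehicle and 617, 579 and 604 CPM with insulin (0.43 ± 0.06, adjusted p = 7.31e-06). MDM2, the ligase that degrades p53, had 345, 365 and 343 CPM against 427, 469 and 452 CPM (0.36 ± 0.05, adjusted p = 1.76e-05), and TP53I3 had 61 to 69.6 CPM against 80 to 88.2 CPM (0.37 ± 0.06, adjusted p = 8.37e-05). The kinase gene PLK2 was the member that fell (-0.35 ± 0.05, adjusted p = 1.42e-05). These 4 kept their calls with each library left out, but the count of rises was 4 without vehicle library 1 or insulin library 3 and 6 without vehicle library 3, insulin library 1 or insulin library 2. BTG2, TIGAR, KITLG, RRM2B and CMBL were among those lost.

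The largest rises were of genes at low levels. INHBE, the activin beta E subunit, had 0.583, 0.808 and 0.71 CPM with vehicle and 2.57, 1.86 and 1.6 CPM with insulin at 14 to 55 counts per library (1.48 ± 0.37, adjusted p = 0.023), and it stayed called without insulin library 3 only (adjusted p otherwise 0.0551 to 0.18). COL15A1 had 0.624, 0.96 and 0.862 CPM against 1.89, 2.19 and 2 CPM (1.29 ± 0.27, adjusted p = 0.00486), lost without vehicle library 1 (0.0531). TNFRSF9, the costimulatory receptor 4-1BB, rose from 3.5, 2.73 and 3.5 CPM to 4.55, 5.74 and 7.92 CPM (0.95 ± 0.18, adjusted p = 0.00141), lost without insulin library 3 (0.0833), and EPGN, an EGF receptor ligand, from 1.52 to 2.3 CPM to 3.54 to 3.6 CPM (0.86 ± 0.19, adjusted p = 0.00794), lost without vehicle library 3 (0.0702). DRAXIN, a secreted guidance factor, and FABP3, a fatty acid binding protein, kept their calls with each library left out. DRAXIN rose from 9.49, 10.3 and 7.35 CPM to 15.1, 14.8 and 14.5 CPM (0.69 ± 0.12, adjusted p = 0.000515), and FABP3 from 9.57, 9.7 and 9.89 CPM to 16.9, 14.1 and 15 CPM (0.66 ± 0.09, adjusted p = 1.78e-05). BCYRN1 and PCDHGC5, also among the 12 largest rises, share sequence with other copies or exons. Reads set aside as multimapping or ambiguous are not in their counts.

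**Figure D3:**
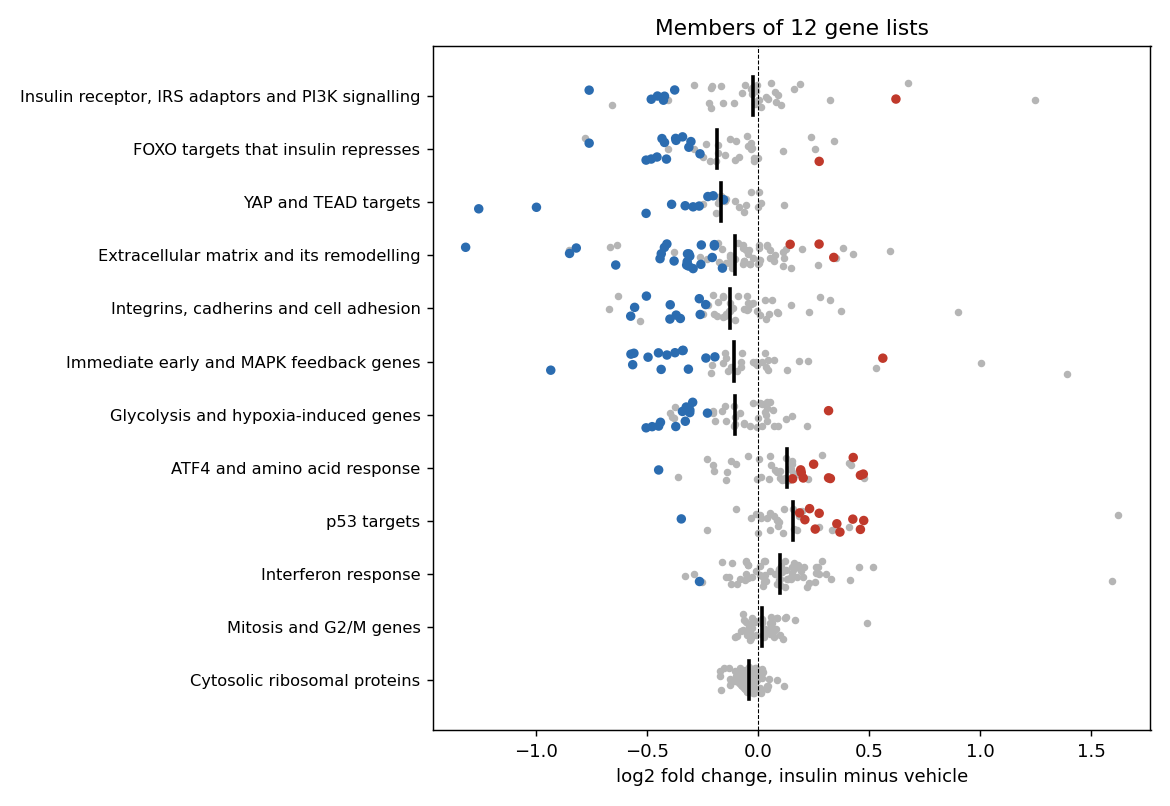
Log2 fold change with insulin (horizontal axis, insulin minus vehicle) of the measured members of 12 gene lists (vertical axis) in siRSAD2 PIK3CA H1047R cells. Points are genes, spread vertically for visibility, with blue lower and red higher at an adjusted p below 0.05, grey not past it and black bars at the median. FOXO targets have a median of -0.19 and YAP and TEAD targets of -0.17, while ATF4 genes lie at 0.13 and p53 targets at 0.16.

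Few growth and division genes passed the test. None of 50 mitosis genes passed with edgeR (3 at an unadjusted p below 0.05, 1 with DESeq2), and the proliferation marker MKI67 had 924 to 1011 CPM with vehicle and 879 to 1023 CPM with insulin (0.02 ± 0.06, adjusted p = 0.976). Among 58 genes of DNA replication and of entry into S phase 2 fell, the inhibitor gene CDKN2B by 0.44 ± 0.05 (adjusted p = 5.53e-07) and the cyclin gene CCND1 by 0.22 ± 0.05 (0.01), the latter lost without vehicle library 3, insulin library 1 or insulin library 2 (0.0582 to 0.0786). None of 78 cytosolic ribosomal protein genes, 54 ribosome biogenesis genes, 49 nuclear-encoded respiratory chain genes and 15 mitochondrially encoded genes passed with edgeR. At an unadjusted p below 0.05 these lists had 8, 6, 4 and 1 members, and with DESeq2 0, 0, 1 and 0. Over all 23184 genes tested, 2514 had an unadjusted p below 0.05 and DESeq2 called 776. In the mTORC1 list 2 of 35 rose (DDIT4 and SESN1) and 2 fell (RICTOR and CASTOR2), 11.4% called against 2.47% of all genes. CASTOR2 (adjusted p = 0.0493) was lost with any 1 of the 6 libraries left out (0.0771 to 0.26), which left 1 fall, and SESN1 was lost with 5 of them (0.0572 to 0.137) and kept without vehicle library 2.

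In the lipid, stress and clearance lists the share called was 7.5% (sterol and fatty acid), 3.45% (unfolded protein), 10.9% (autophagy and lysosome) and 7.41% (NRF2). Over all genes tested it was 2.47%. Of 40 sterol and fatty acid genes 2 rose and 1 fell, and the rises numbered 0 without vehicle library 1 and 4 without empty-vector insulin library 2. FASN, fatty acid synthase, had 1049, 1088 and 1056 CPM with vehicle and 1351, 1144 and 1307 CPM with insulin (0.25 ± 0.07, adjusted p = 0.0449). With the 6 compared libraries left out singly, its call was kept without insulin library 2 only. DESeq2 did not call it (its adjusted p = 0.125). ME1 rose by 0.32 ± 0.08 (adjusted p = 0.0117), lost without vehicle library 1 or insulin library 2 (0.0911 and 0.111). The unfolded protein response was a theme of the study in cells without RSAD2 knockdown. In the list of that response 2 of 58 fell. PPP1R15A, which reverses its translation block, fell from 74.1 to 77.3 CPM to 53.5 to 56.6 CPM (-0.47 ± 0.07, adjusted p = 4.04e-05). CREB3L2 fell by 0.27 ± 0.06 (0.00414), lost without insulin library 2 (0.0742). The chaperone HSPA5 differed by 0.05 ± 0.04 (adjusted p = 0.755). Of 46 autophagy and lysosome genes 4 fell and 1 rose, with GUSB at -0.29 ± 0.06 and CTSB at -0.26 ± 0.05 (both adjusted p = 0.00215). The falls numbered 2 without vehicle library 1 or 3 or insulin library 1 or 2, since NPC2 (adjusted p = 0.0428) was lost with any 1 of the 6 libraries left out and ULK2 (0.0151) with those 4. The riser ATP6V1A was kept without insulin library 1 and with no other of the 6 left out. Of 27 NRF2 targets TXNRD1 fell by 0.20 ± 0.04 (adjusted p = 0.00159) and ME1 rose.

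Interferon response genes are the family of RSAD2 itself. In the list of 72 measured members, a theme the study drew from this series, none rose and STAT2 fell with edgeR and TMM scaling. An insulin range wholly above the vehicle range was seen for 20 members (8.83% of all genes), and the median was 0.097. STAT2, a transcription factor of type I interferon signalling, had 116, 106 and 104 CPM with vehicle and 84.2, 95.5 and 91.2 CPM with insulin (-0.27 ± 0.06, adjusted p = 0.00713), and it was lost without vehicle library 1 or insulin library 1 (0.113 and 0.124). IFIT1, an antiviral RNA-binding protein, had 73.5, 90 and 74.7 CPM against 99, 95.3 and 92.5 CPM and did not pass (0.26 ± 0.08, adjusted p = 0.0617). MX1, an antiviral GTPase, had 45.7 to 68.7 CPM against 65.2 to 74.8 CPM (adjusted p = 0.497), and ISG15 differed by 0.03 ± 0.14 (0.983). With RLE scaling in edgeR 2 members rose, and with DESeq2 2 rose. With all genes but no filter on low counts 11 members rose, and 18 rose where the spread was estimated from the 6 libraries alone, so whether interferon genes were called depended on the fit. CMPK2, the neighbour of RSAD2 on chromosome 2, was at 1.33 to 2.15 CPM with vehicle and 0.9 to 1.97 CPM with insulin (adjusted p = 0.859).

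The insulin effect was last set against that in siRSAD2 cells with the empty plasmid, which share no library with it. In those cells 1457 genes (6.28%) were called, 2.1% of all genes upward and 4.19% downward. Of the 573 genes called with H1047R, 435 were also called there. Lists described above moved there too. YAP and TEAD targets had 13 falls and 0 rises, FOXO targets 15 falls and 4 rises, and MAPK feedback genes 22 falls and 2 rises. Targets of p53 had 23 rises and 2 falls, and ATF4 genes 17 rises and 4 falls. The difference between the insulin effects passed for none of 23184 genes with edgeR or DESeq2, with 1611 genes at an unadjusted p below 0.05 and a smallest adjusted p of 0.493. Without the filter on low counts it passed for 81 genes with edgeR. Some named genes had similar values, with IRS2 at -0.76 ± 0.07 and -0.72 ± 0.07 with the empty plasmid, MXI1 at -0.50 ± 0.07 and -0.50 ± 0.07, and PSAT1 at 0.47 ± 0.05 and 0.51 ± 0.05. The smallest unadjusted p among genes with a mean of 1 CPM or more were those of MALAT1, CTXN1 and MDM2. MALAT1, a nuclear noncoding RNA, had 495 to 591 CPM with vehicle and 479 to 513 CPM with insulin in H1047R cells (-0.11 ± 0.08), against 0.45 ± 0.09 with the empty plasmid (difference -0.56 ± 0.12, unadjusted p = 6.35e-05). MDM2 differed by -0.32 ± 0.07 between the vectors (8.84e-05), with a rise of 0.68 ± 0.05 in empty-plasmid cells, and the cortexin gene CTXN1 by 0.94 ± 0.20 (7.29e-05). CEMIP, with a fall of 1.78 ± 0.06 in empty-plasmid cells, had a difference of 0.37 ± 0.08 (9.63e-05), and EGR1, with a rise of 1.00 ± 0.07 there, one of -0.44 ± 0.10 (0.000151). All 5 had an adjusted p of 0.493 and did not pass.

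**Figure D4:**
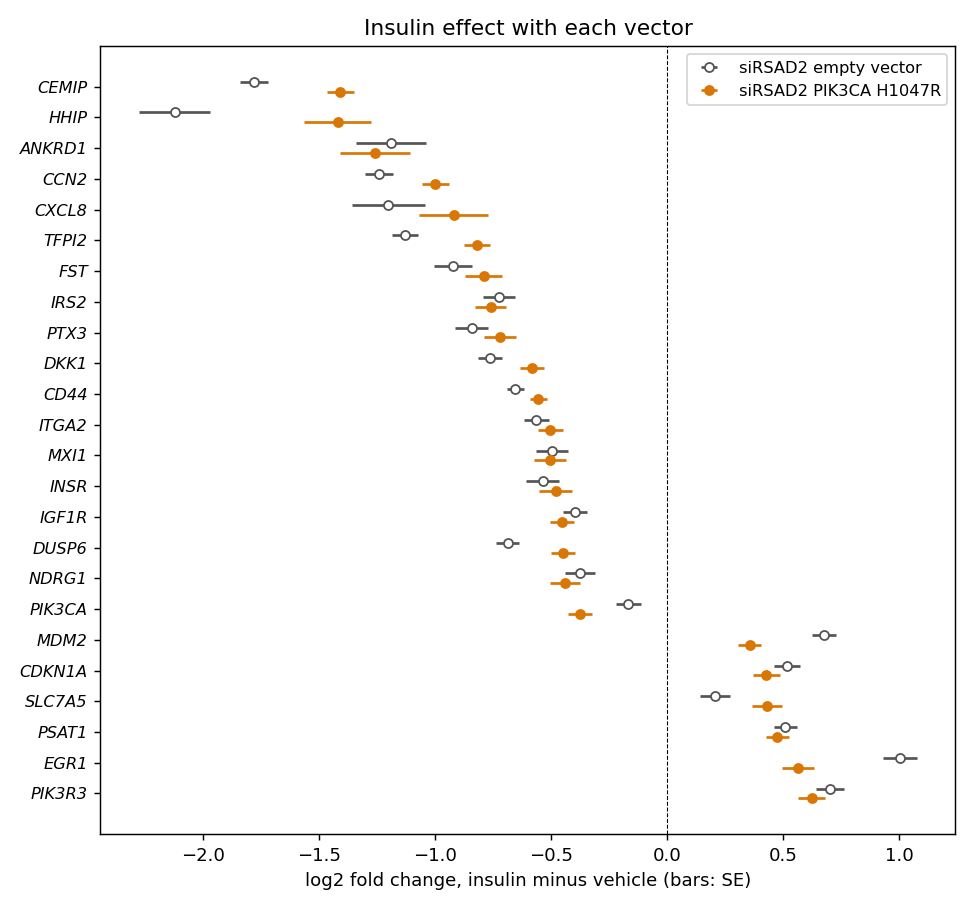
Log2 fold change with insulin (horizontal axis, bars are SE) of 24 genes (vertical axis) in siRSAD2 cells with the empty plasmid (open grey) or PIK3CA H1047R (orange), from 3 libraries a group. For HHIP the values are -2.12 and -1.42 and for EGR1 1.00 and 0.56, and the difference passed the adjusted threshold for no gene.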

How the data were processed

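RNA of 12Z cells was sequenced in 15 libraries of 5 groups of 3, and the 6 siRSAD2 PIK3CA H1047R libraries were compared. The authors trimmed reads with cutadapt and Trim Galore, used STAR for alignment to hg38 and deposited raw counts per gene without normalisation. Tool versions are not given in the sources used here, and the annotation release the methods name is numbered as a mouse release. The reverse-stranded counts were used. Symbols and coordinates come from GENCODE release 44, which matched 60357 of 60617 identifiers, and promoters from RefSeq (GRCh38.p14). Genes whose counts averaged 1 or more over the libraries were tested in edgeR 4.0.16 (R 4.3.3), with all 15 libraries in 1 quasi-likelihood fit, a term per group, TMM scaling and a Benjamini-Hochberg threshold of 0.05. The SE is the absolute log2 fold change over the square root of F. The fit was tested on simulated data, in which the share of false calls was above the threshold. Calls near the threshold may therefore be less certain than their adjusted p states. Intervals cover the spread between libraries only.

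Named genes were RSAD2, PIK3CA, CEMIP, IRS2, the 12 largest rises and falls among called genes that averaged 1 CPM or more and had groups apart, the 3 members of smallest p per list among those called, and the 3 smallest unadjusted interaction p values among genes of 1 CPM or more. Other members were named for their role or after their values were seen. The 33 lists (1341 of 1344 entries matched), motifs and members were chosen with earlier results of these data known. Lists are given by counts and medians, with no set test. Some items are not reported here.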

Additional observations from a re-analysis of the deposited data

How the results depend on the processing

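With 573 genes called, 112 up and 461 down, DESeq2 1.42.0 called 776, of which 223 rose and 553 fell, and 563 genes were called by both tools. RLE scaling gave 556, the filter of edgeR 634, no filter 668, unstranded counts 533 and the 12 siRSAD2 libraries 502. An adjusted threshold of 0.001 left 205 genes, 20 up and 185 down. With the 6 compared libraries alone 1272 were called, 398 up and 874 down. Leaving out each of the 6 compared libraries, empty-vector vehicle library 3 or empty-vector insulin library 2 gave 354 to 824 genes, 49 to 243 up and 292 to 581 down, with 359 and 374 when vehicle library 1 or 3 of the mutant was dropped, 354 and 363 when its insulin library 1 or 3 was dropped, and 824 without empty-vector insulin library 2, which was left out after the data were seen. The interaction gave 81 genes unfiltered and 0 to 1 when 1 of the 12 siRSAD2 libraries was left out. The cause of these shifts was not tested. Deviations of same-numbered vehicle and insulin libraries correlated at -0.052, -0.263 and -0.077, so no shared shift of matching numbers was seen. The methods do not say whether matching numbers mark the same experiment. With the replicate block 522 genes were called in the 12 siRSAD2 libraries, 89 up and 433 down, and 1003 in the 6 libraries, 280 up and 723 down. Of 85 named genes 82 passed, and 56 had the same call in all 18 alternatives; none reversed. Of 169 called list members and named genes, 106 kept their call with each of the 6 libraries left out.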
